A study of Homo sapiens with 12 samples.

Results

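The genes described are 36 genes of the unfolded protein response and of the protein-folding machinery of the endoplasmic reticulum (ER), taken from the raw gene count matrix by gene symbol. All 36 symbols were found, each in 1 row of a matrix of 60623 genes, and all 36 passed the low-count filter together with 17096 genes in all. The counts came from RNA sequencing of NUGC-4 cells, an established human line of diffuse gastric cancer whose genotype is labelled WT. The cells were left as controls or treated for 24 h with 1 µM IN10018, an inhibitor of focal adhesion kinase, with 1 µM crizotinib, an inhibitor of ROS1, MET and ALK kinases, or with both at those doses, here called the combination. Each of the 4 groups had 3 libraries, and the vehicle of the controls is not given in the sources used here. Nothing in the labels tells whether the 3 libraries of a group are separate cultures, and p-values therefore measure only the spread between these libraries, which may be technical.

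Proteins that enter the secretory pathway are threaded into the ER through the SEC61 channel and folded there by chaperones such as BiP (gene HSPA5) and GRP94 (gene HSP90B1), with disulfide bonds set by protein disulfide isomerases. When unfolded proteins accumulate, the membrane sensors ATF6, IRE1 (gene ERN1) and PERK (gene EIF2AK3) start the unfolded protein response, in which cleaved ATF6 and spliced XBP1 raise transcription of chaperones and of ER-associated degradation (ERAD) genes, and PERK slows translation. Proteins that cannot be folded are passed back to the cytosol by the ERAD machinery and degraded. The counts are totals per gene and do not separate the spliced from the unspliced form of XBP1 mRNA, nor do they measure cleavage of ATF6 or phosphorylation of PERK.

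Many targets of this response carry the ER stress response element (ERSE), CCAAT followed after 9 bases of any kind by CCACG, or its compact form ERSE-II, ATTGG and CCACG with 1 base between them. Both were searched on either strand in the 250 bases before each gene start in RefSeq promoters of GRCh38.p14, where 33 of the 36 genes had an entry and DERL1, DERL3 and PDIA3 had none. ERSE was present for 7 of these 33 genes (21.2%) and for 25 of the 27305 genes in the table (0.0916%), and ERSE-II for 3 of 33 (9.09%) and 18 of 27305 (0.0659%). The UPRE core TGACGTG was present for HYOU1, SSR3 and SSR4 (9.09%, against 2.05% of all genes), and the C/EBP-ATF composite site TTGCATCA for HERPUD1 (3.03% against 0.967%). The stretches around the elements of 4 ERSE genes and 3 ERSE-II genes follow, because these are genes of the same element whose counts went in different directions below. They are written 5′ to 3′ on the strand of the gene with 20 bases on each side, and capitals mark the 2 parts of the element; CGTGG with ATTGG, or with CCAAT in the ERSE-II, is the element read on the other strand.
HSPA5: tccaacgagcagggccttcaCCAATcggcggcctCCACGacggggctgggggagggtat
HSP90B1: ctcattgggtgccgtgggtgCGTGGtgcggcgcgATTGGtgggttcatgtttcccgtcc
CRELD2: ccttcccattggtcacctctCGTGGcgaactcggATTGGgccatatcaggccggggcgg
XBP1: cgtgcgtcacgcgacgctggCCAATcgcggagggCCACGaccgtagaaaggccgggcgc
SDF2L1: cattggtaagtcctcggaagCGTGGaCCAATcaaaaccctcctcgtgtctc
HERPUD1: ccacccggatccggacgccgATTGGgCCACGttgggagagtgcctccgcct
HYOU1: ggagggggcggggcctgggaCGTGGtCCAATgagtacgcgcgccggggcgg
The HSPA5 stretch lies on the minus strand at chr9:125241371-125241429, with its element 47 bases before the gene start. That of XBP1 lies on the minus strand at chr22:28800583-28800641, with its element 33 bases before the gene start. Those of HSP90B1 (chr12:103930301-103930359), CRELD2 (chr22:49918534-49918592) and SDF2L1 (chr22:21642094-21642144) lie on the plus strand. Their elements are 70, 61 and 177 bases before the gene start. The HERPUD1 stretch lies on the plus strand at chr16:56932005-56932055, and the HYOU1 stretch on the minus strand at chr11:119057254-119057304. HSP90B1 has a second ERSE and HYOU1 a second ERSE-II farther upstream in the same window, and the one nearer to the gene start is printed. The other ERSE genes were CALR, CANX and PDIA6. Gene starts here are those of RefSeq. The GENCODE 29 span of HSP90B1 and CRELD2 begins farther upstream and holds the whole stretch, that of XBP1 and HERPUD1 holds its last bases, and the stretches of HSPA5, SDF2L1 and HYOU1 lie outside the gene. A match is a description of the letters and not a measured binding site.

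Libraries held between 13691844 and 20489708 reads assigned to genes, and the 36 genes took between 0.97% and 1.25% of them. Crizotinib library 2 stood apart from the other 2 crizotinib libraries, with a score of 57.8 on the first principal component against -4.6 and 10.3 (combination 37.8 to 91.4), so crizotinib results are given with and without it. Reads of mitochondrial genes made up 11% to 12.7% in control and IN10018 libraries, 13.3%, 5.2% and 9.5% in crizotinib libraries 1 to 3, and 7%, 4.3% and 6.6% in combination libraries 1 to 3. Of the markers of the labelled cell type, KRT8 (1391 CPM) and KRT18 (616.7 CPM) were high in controls, while KRT19 had no read in any library and CLDN18 had 4 reads in all 12. COL3A1, a fibroblast collagen, stood at 6046 CPM in controls, and the description label mentions adipogenic differentiation although ADIPOQ had no read. The summed level of the 11 epithelial markers was 2190 to 2320 CPM in controls, 1870 to 2050 with IN10018, 2010 to 3560 with crizotinib and 2670 to 4050 in the combination. That of the 6 fibroblast markers was 5670 to 6250 CPM in controls and 5070 to 6000 in the combination, nearly all of it COL3A1, with DCN (1.85 CPM) the highest of the others in controls and COL1A2 at 0.0249 CPM. The 5 adipocyte markers summed to 68.5 to 77.3 CPM in controls and 105 to 133 in the combination, nearly all of it FABP4 (71.3 CPM in controls), with PLIN1 next at 1.21 CPM. The 3 endothelial markers summed to 18.1 to 21.9 and 33.9 to 41.3 CPM, with PECAM1 at 6.51 and 27.1 CPM, CDH5 at 13.6 and 9.44 CPM and VWF at 2 reads in all. The 4 plasma cell markers, nearly all SDC1, summed to 131 to 141 and 123 to 157 CPM, and the 5 leukocyte markers to at most 0.77 CPM in every library. The part of these differences in the changes below was not tested.

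Levels are given as CPM, the read count of a gene scaled to the depth of its library with TMM factors, and changes as log2 fold changes ± SE from edgeR's quasi-likelihood test over all 12 libraries, with p-values adjusted by Benjamini-Hochberg over 17096 genes and called at 0.05. In bulk RNA, fewer cells of a type and less RNA per cell cannot be told apart, and each level is relative to the other RNA in its library. Per kilobase of exon, the most abundant of the 36 mRNAs in controls were those of the lectin chaperones calnexin (CANX, 360 ± 21.9 CPM per kb, SD, n = 3) and calreticulin (CALR, 319 ± 20.8), followed by HSP90B1 (292 ± 16.8), HSPA5 (283 ± 17.4) and the disulfide isomerase P4HB (263 ± 9.63). Among these 5 genes, neighbours in the order overlapped within 1 SD of both. The 3 sensors were far lower on the same scale, at 16.3 ± 0.889 for ATF6, 5.14 ± 0.367 for EIF2AK3 and 3.48 ± 0.117 for ERN1, and DERL3 was the lowest of all (1.04 ± 0.0859). In the combination the means were in another order, with HSP90B1 at 407 ± 45.5 CPM per kb, P4HB at 319.8 ± 29.4, CALR at 313 ± 8.52, HSPA5 at 279 ± 4.78 and CANX at 272 ± 37.8. The summed level of the 36 genes was 10870 to 12020 CPM in controls, 10340 to 10910 with IN10018, 9644 to 11830 with crizotinib and 10620 to 11440 in the combination.

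The first question is what both drugs together did to these genes. Against control, mRNAs of all 3 sensors, of both transcription factors and of most ERAD genes were lower in the combination, while all combination libraries of HSPA5, the classical reporter of ER stress, lay within the range of the controls. Of the 36 genes, 19 were lower, 6 were higher (HSP90B1, CRELD2, SDF2L1, SSR2, SSR4 and DERL3) and 11 were not called. Over all genes tested, 29.1% were called lower and 33.7% higher, so most genes tested were called in this comparison (62.8%). All 3 combination libraries lay above all 3 controls for 8 of the 36 genes and below them for 20, beside 37.9% and 33.2% of all genes tested. Combination library 2 lay farthest from the controls, with a first component of 91.4 against 56.3 and 37.8 for libraries 1 and 3. Without it 4 genes were higher and 19 lower, beside 26.9% and 25.1% of all genes in that fit. The median change of the 36 genes was -0.34, beside 0.10 for all genes tested and -0.06 for the protein-coding genes among them. The share of mitochondrial reads was lower in every combination library than in every control, and its part in these changes was not tested.

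**Figure D1:**
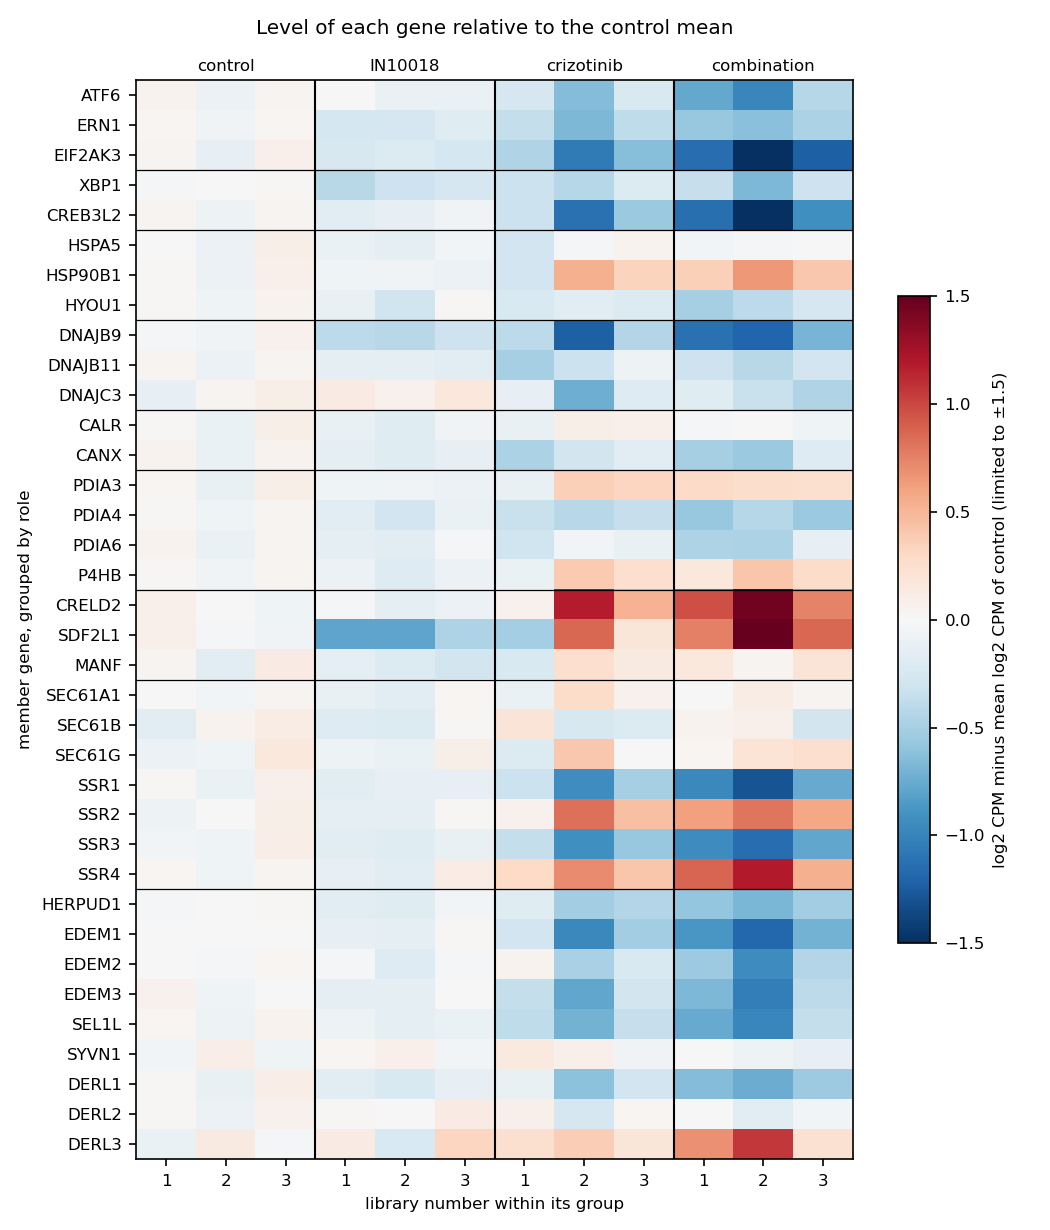
Level of each of the 36 genes (rows, grouped by role) in each of the 12 libraries (columns), as log2 CPM minus the mean log2 CPM of the 3 controls, with the colour scale limited to ±1.5. The combination columns hold 19 genes called lower and 6 called higher against control, and crizotinib library 2 shows stronger colours than the other 2 crizotinib libraries for most of them.

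Among the sensors, EIF2AK3 (chr2:88556741-88627576 in GENCODE 29, GRCh38), the kinase that phosphorylates the translation factor eIF2α, was at 28.7, 25.6 and 29.4 CPM in controls 1 to 3, 23.7, 24.1 and 23.2 with IN10018, 20.4, 13.4 and 17.9 with crizotinib alone and 12.7, 7.92 and 11.9 in the combination. Every combination library lay below every library of the other 3 groups. The change against control was -1.36 ± 0.18 in the combination (adjusted p = 7.7e-05), the largest decrease of the 36 genes, and -0.70 ± 0.17 with crizotinib (adjusted p = 0.0088). ATF6 (chr1:161766294-161964070), the precursor of a transcription factor released by cleavage in the Golgi, read 133, 121 and 133 CPM in controls, 128, 120.2 and 119.7 with IN10018, 108, 82.2 and 109.8 with crizotinib alone and 75.4, 65.3 and 95.3 in the combination. Its IN10018 libraries overlapped the controls, and its combination libraries were all below them. It fell in the combination (-0.71 ± 0.14, adjusted p = 0.00072), and the crizotinib change of -0.37 ± 0.14 missed the threshold (adjusted p = 0.052). For ERN1 (chr17:64039142-64130819), the kinase and endonuclease that splices XBP1, levels were 38.6, 36.3 and 38.4 CPM in controls, 31.5, 31.8 and 33.3 with IN10018, 29.5, 23.7 and 29.1 with crizotinib alone and 25.4, 24.5 and 27.1 in the combination. All 9 treated libraries lay below all 3 controls. ERN1 fell with crizotinib (-0.46 ± 0.11, adjusted p = 0.0074) and in the combination (-0.56 ± 0.11, adjusted p = 0.00062).

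XBP1 (chr22:28794555-28800597), whose spliced mRNA encodes the main transcription factor of the IRE1 branch, stood at 85.8, 88.1 and 89.1 CPM in controls, 65.8, 70.7 and 73.9 with IN10018, 69.9, 65.2 and 76.2 with crizotinib alone and 68.9, 55.1 and 70.7 in the combination. No treated library reached the lowest control. The change was -0.43 ± 0.11 in the combination (adjusted p = 0.0037), -0.32 ± 0.11 with crizotinib (adjusted p = 0.037) and -0.32 ± 0.11 with IN10018, which was not called (adjusted p = 0.25). CREB3L2 (chr7:137874979-138002067), an ER-bound factor related to ATF6 that raises genes of the secretory pathway, had 105, 96 and 104 CPM in controls, 91.3, 93.4 and 97.8 with IN10018, 81.1, 46.6 and 69.2 with crizotinib alone and 46.5, 35.6 and 53.8 in the combination. IN10018 libraries overlapped the controls and the libraries of the other 2 groups were below them. It fell by 1.16 on the log2 scale in the combination (SE 0.18, adjusted p = 0.00016) and by 0.63 with crizotinib (SE 0.18, adjusted p = 0.015). The XBP1 calls with crizotinib and in the combination were lost when library totals replaced TMM factors.

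**Figure D2:**
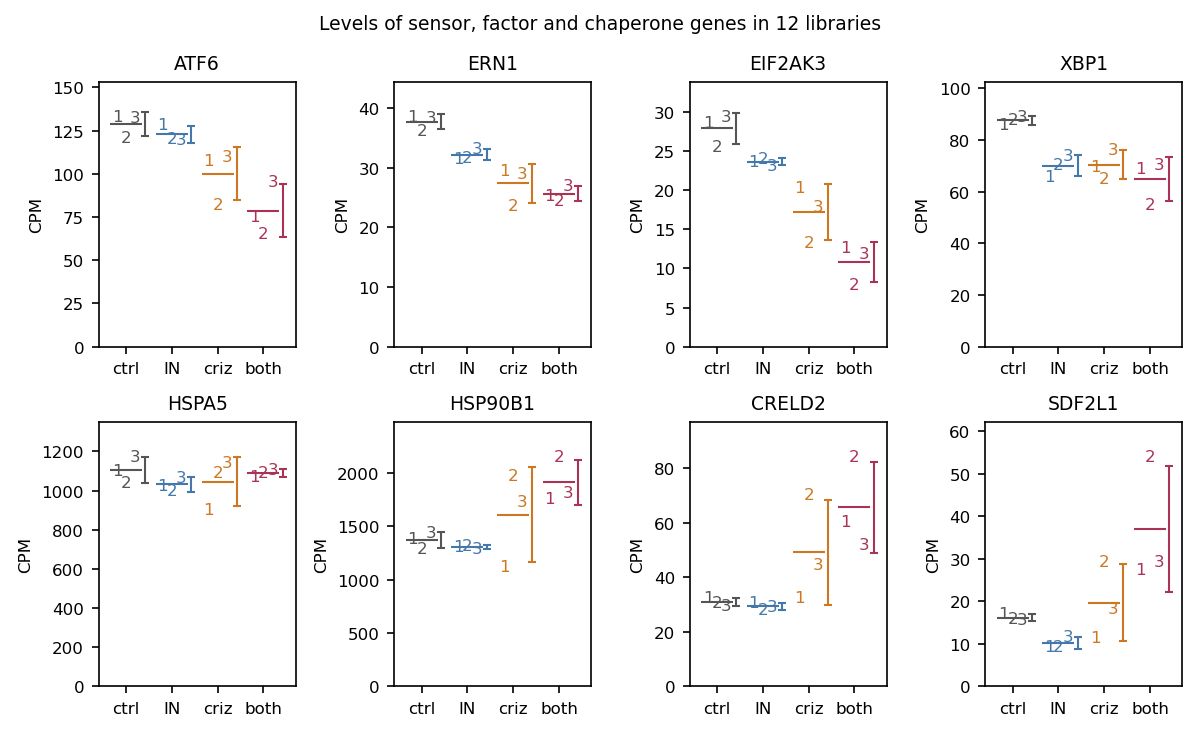
CPM of 3 sensors, XBP1, 2 large chaperones and 2 small lumenal proteins in each library, with the digit giving the library number, the line the group mean and the bar ± 1 SD (n = 3); ctrl is control, IN is IN10018, criz is crizotinib and both is the combination. Mean EIF2AK3 was 27.9 CPM in controls and 10.8 CPM in the combination, HSPA5 stayed between 902 and 1175 CPM, and CRELD2 and SDF2L1 were highest in combination library 2.

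The large lumenal chaperones did not move as a block. HSPA5 (chr9:125234853-125241330), which encodes BiP, the Hsp70 of the ER, read 1100, 1039 and 1175 CPM in controls, 1026, 998 and 1069 with IN10018, 902, 1090 and 1142 with crizotinib alone and 1070, 1091 and 1107 in the combination. The 4 groups overlapped, and the change was -0.02 ± 0.10 in the combination (adjusted p = 0.87) and -0.08 ± 0.10 with crizotinib (adjusted p = 0.55). HSP90B1 (chr12:103930107-103953645), the Hsp90 of the ER, was at 1381, 1288 and 1445 CPM in controls, 1309, 1319 and 1289 with IN10018, 1119, 1976 and 1732 with crizotinib alone and 1762, 2155 and 1813 in the combination. Crizotinib library 1 was the lowest of all 12, the other 2 crizotinib libraries were above the controls, and so were all 3 of the combination. HSP90B1 rose in the combination (0.48 ± 0.16, adjusted p = 0.019), a call that was lost without control library 2, control library 3 or combination library 2. HYOU1, the large Hsp70-like exchange factor of BiP, fell in the combination from 331 ± 13.8 to 255 ± 22 CPM (SD, n = 3), a change of -0.38 ± 0.10 (adjusted p = 0.0055), which was not called with library totals.

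The J-domain proteins, which pass clients to BiP, were lower or not called. DNAJB9 (chr7:108569568-108574850), which also holds IRE1 inactive, was at 39.4, 38.4 and 41.6 CPM in controls, 30.4, 29.8 and 32 with IN10018, 30.2, 17.1 and 29.2 with crizotinib alone and 18.3, 17.4 and 24.5 in the combination. All 9 treated libraries were below the controls, and crizotinib library 2 was at the level of the combination. It fell with crizotinib (-0.64 ± 0.18, adjusted p = 0.017) and in the combination (-0.99 ± 0.19, adjusted p = 0.00052), while THAP5 and PNPLA8, which overlap it on the opposite strand with 208% and 201% of its reads, changed by -0.61 and -0.41 in the combination. DNAJB11 changed by -0.34 ± 0.11 in the combination (adjusted p = 0.015), a call lost with library totals and turned to 0.28 without a call by the GC and length offset, and DNAJC3, an inhibitor of PERK, by -0.32 ± 0.16 without a call (adjusted p = 0.091). Of the 2 lectin chaperones, which hold glycoproteins during folding, CANX fell from 2245 ± 136 to 1693 ± 236 CPM in the combination (-0.41 ± 0.12, adjusted p = 0.0076), a call lost with library totals, and CALR was not called (-0.03 ± 0.09, adjusted p = 0.82). The disulfide isomerases were divided in the same way. PDIA4 fell in the combination (-0.51 ± 0.09, adjusted p = 0.00034) and so did PDIA6 (-0.34 ± 0.11, adjusted p = 0.017, lost with library totals or without control library 1 or combination library 1), and P4HB (0.28 ± 0.12, adjusted p = 0.053) and PDIA3 (0.26 ± 0.12, adjusted p = 0.061) were not called. These 2 lay near the threshold and were called higher in several alternatives. Both were called with library totals and without crizotinib library 1 or 2, P4HB also by limma-voom and PDIA3 also with the GC and length offset.

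In this fit the largest increases were those of 2 small lumenal proteins that are classical targets of the response. CRELD2 (chr22:49918167-49927540), a secreted protein with disulfide isomerase activity, stood at 32.6, 30.8 and 29.6 CPM in controls, 30.7, 28.1 and 29.2 with IN10018, 32.5, 70.3 and 44.6 with crizotinib alone and 60.6, 84.4 and 52 in the combination. All combination libraries were above all controls, and crizotinib library 1 was within the controls while library 2 was above 2 of the 3 combination libraries. The change was 1.08 ± 0.23 in the combination (adjusted p = 0.0011) and 0.67 ± 0.23 with crizotinib (adjusted p = 0.034). SDF2L1 (chr22:21642261-21644298), a partner of BiP and ERdj3, was at 17.1, 15.8 and 15.7 CPM in controls, 9.33, 9.35 and 11.7 with IN10018, 11.4, 29.4 and 18.3 with crizotinib alone and 27.4, 54.1 and 29.4 in the combination. IN10018 libraries were all below the controls and combination libraries all above them, with crizotinib libraries on both sides. SDF2L1 rose in the combination (1.19 ± 0.29, adjusted p = 0.0032), but with an offset for GC content and transcript length it turned to -0.13 without a call, and SSR2 (0.94) and HSP90B1 (0.93) then had larger increases than CRELD2 (0.81). In the fit without that offset it was not called with crizotinib (0.29 ± 0.30, adjusted p = 0.45) or with IN10018 (-0.68 ± 0.31, adjusted p = 0.44). MANF, a secreted factor of the same group, changed by 0.12 ± 0.13 without a call.

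Subunits of a single complex went in opposite directions. The translocon-associated protein (TRAP) complex, which sits beside SEC61 and helps some signal sequences to open the channel, has the 4 subunits SSR1, SSR2, SSR3 and SSR4. SSR1 (chr6:7268306-7347446) was at 284, 261 and 296 CPM in controls, 251, 257 and 256 with IN10018, 224, 146 and 198 with crizotinib alone and 143, 114 and 166 in the combination. SSR3 (chr3:156540140-156555184) followed the same course, from 149.5, 147 and 164 CPM in controls and 136, 135 and 142 with IN10018 to 119.6, 81.2 and 103 with crizotinib alone and 79.8, 69.6 and 89.2 in the combination. For both genes every crizotinib and combination library lay below every control, and the combination changes were -0.99 ± 0.15 for SSR1 (adjusted p = 0.00017) and -0.95 ± 0.13 for SSR3 (adjusted p = 0.00011). SSR2 (chr1:156009048-156020959) had 109.7, 115 and 122 CPM in controls, 106, 105 and 117 with IN10018, 121, 204 and 158 with crizotinib alone and 176, 202 and 172 in the combination. SSR4 (chrX:153793516-153798505) had 104, 98 and 105 CPM in controls, 93.9, 91.5 and 110.2 with IN10018, 126, 168 and 136 with crizotinib alone and 188, 233 and 148 in the combination. Combination libraries were above the controls for both, and crizotinib library 1 was within the controls for SSR2. SSR2 rose by 0.67 ± 0.15 (adjusted p = 0.0017) and SSR4 by 0.89 ± 0.15 (adjusted p = 0.00031). IDH3G, which overlaps SSR4 on the opposite strand with 30.6% of its reads, changed by 0.46. The channel genes SEC61A1, SEC61B and SEC61G were not called, with changes of 0.05 ± 0.10, -0.05 ± 0.15 and 0.16 ± 0.14.

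**Figure D3:**
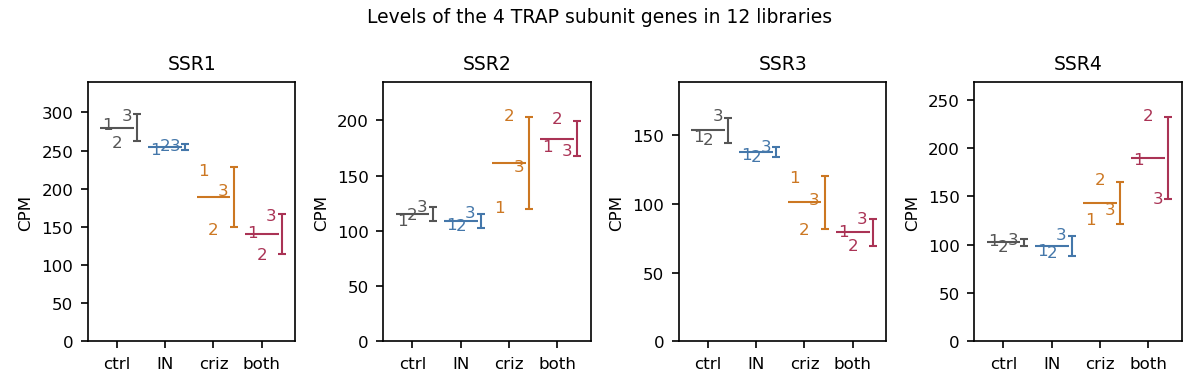
CPM of the 4 TRAP subunit genes in each library, with the digit giving the library number, the line the group mean and the bar ± 1 SD (n = 3); ctrl is control, IN is IN10018, criz is crizotinib and both is the combination. SSR1 and SSR3 were lower and SSR2 and SSR4 higher in the combination than in any control library.

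In ERAD, 6 of the 9 genes were lower in the combination, 1 was higher and 2 were not called. Over all genes tested, 29.1% were called lower and 33.7% higher. Of the ERAD calls, those of SEL1L, EDEM3 and DERL3 were lost with the GC and length offset. HERPUD1 (chr16:56932048-56944863), the ubiquitin-like organiser of the retrotranslocation complex, was at 209, 212 and 215 CPM in controls, 189.9, 187 and 206 with IN10018, 188, 148 and 156 with crizotinib alone and 142, 132 and 148 in the combination. All treated libraries lay below the controls, and the combination change was -0.59 ± 0.10 (adjusted p = 0.00032). EDEM1 (chr3:5187646-5219957), which helps to trim mannose from misfolded glycoproteins, had 110.1, 112 and 111 CPM in controls, 102, 100.5 and 112 with IN10018, 91, 56.6 and 77.1 with crizotinib alone and 60.6, 49.1 and 67.7 in the combination. The combination libraries were below all controls, and the change was -0.91 ± 0.15 (adjusted p = 0.00029). Its relatives EDEM2 (-0.63 ± 0.15, adjusted p = 0.0025) and EDEM3 (-0.68 ± 0.15, adjusted p = 0.0018) fell too, as did SEL1L, the adaptor of the ligase (-0.68 ± 0.14, adjusted p = 0.001), and DERL1, a channel component (-0.65 ± 0.12, adjusted p = 0.00055). TBC1D31, which overlaps DERL1 on the opposite strand with 38% of its reads, changed by -1.11 (adjusted p = 0.00011). The ligase SYVN1 (-0.07 ± 0.10) and DERL2 (-0.06 ± 0.11) were not called. DERL3 (chr22:23834503-23839128) rested on 49 to 118 reads a library, with 3.67, 4.3 and 3.83 CPM in controls, 4.26, 3.33 and 4.89 with IN10018, 4.62, 5.08 and 4.46 with crizotinib alone and 6.31, 8.2 and 4.59 in the combination. It rose in the combination by 0.69 ± 0.21 (adjusted p = 0.011), lost without control library 3 or combination library 2. SMARCB1, which overlaps DERL3 on the opposite strand with 1080% of its reads, rose by 0.70, and whether counting used strand is not given in the sources used here, so the DERL3 value is uncertain.

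**Figure D4:**
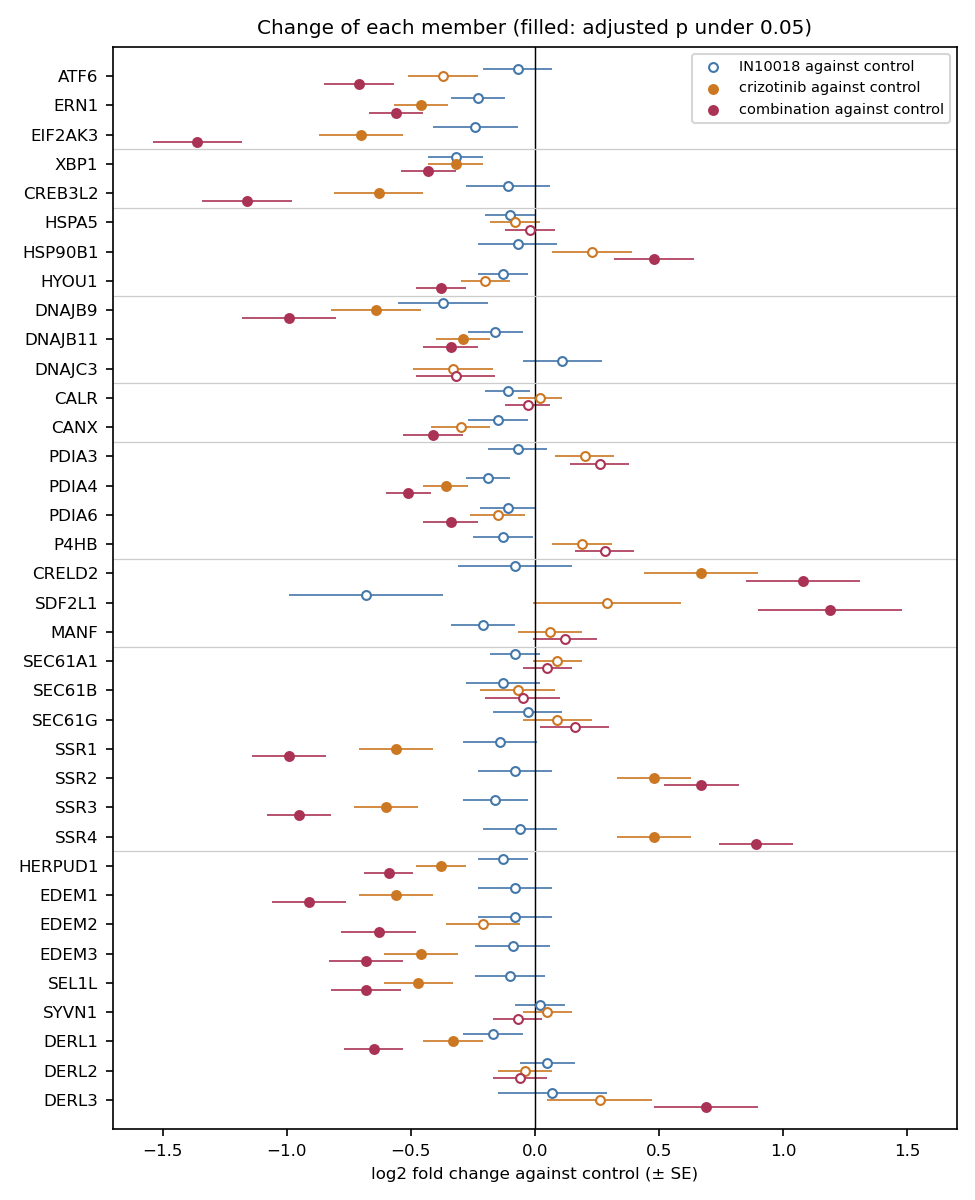
Log2 fold change ± SE of each of the 36 genes against control for IN10018, crizotinib and the combination, which share the 3 control libraries; filled points have an adjusted p under 0.05. All 36 IN10018 points are open, and the combination has 25 filled points, from -1.36 for EIF2AK3 to 1.19 for SDF2L1.

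GC content and transcript length moved with these changes. Across the 36 genes the combination change had a Spearman rank correlation of 0.43 with the GC content of the longest annotated transcript and -0.46 with log exon length, and across 12486 protein-coding genes 0.63 and -0.29. These are descriptions over genes that share the same 6 libraries. The 6 genes called higher had a median GC content of 57.24%, the 19 called lower 43.08% and the 11 others 48.76%. When GC content and length were offset in the fit, an alternative added after the values were seen, 6 genes were higher and 16 lower, of which 4 and 13 were the same as before. Over all genes, 25.8% were higher and 29.3% lower in that fit. The decreases of EIF2AK3 (-1.08), CREB3L2 (-1.02), DNAJB9 (-0.69), EDEM1 (-0.65), ERN1 (-0.52), HERPUD1 (-0.51), SSR3 (-0.46), SSR1 (-0.41) and ATF6 (-0.21) were still called with this offset, and so were the increases of SSR2 (0.94), HSP90B1 (0.93), CRELD2 (0.81) and SSR4 (0.28). SDF2L1 did not keep its direction (-0.13, adjusted p = 0.53), and the calls of DERL3 (0.06), XBP1 (-0.17), SEL1L (-0.06), EDEM3 (-0.06), PDIA6 (-0.21), CANX (0.05) and DNAJB11 (0.28) were lost. Calls gained were DERL2 and PDIA3 (higher) and SEC61B, SYVN1 and CALR (lower).

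**Figure D5:**
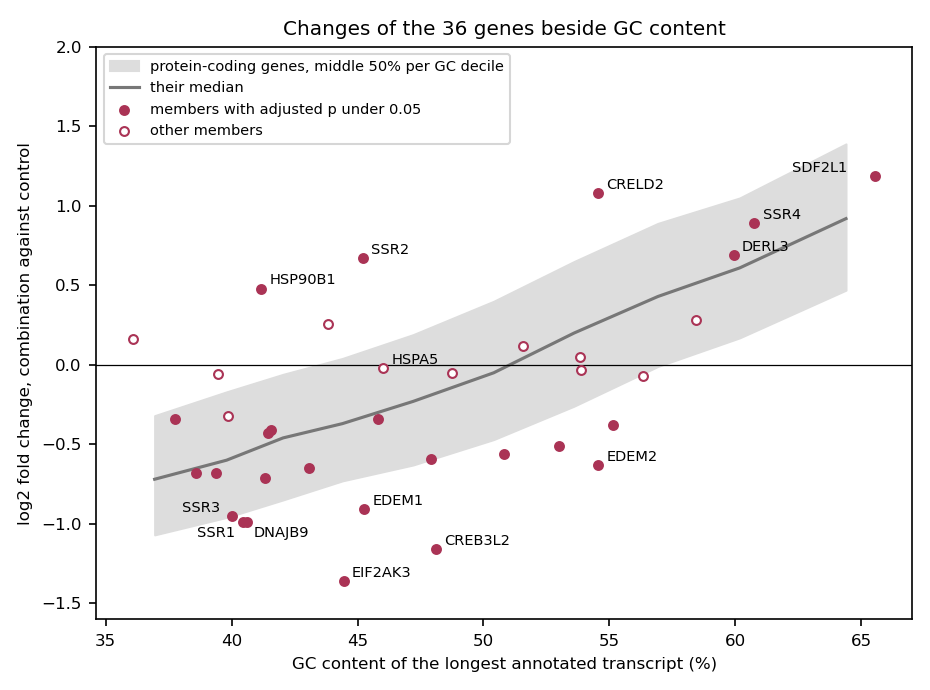
Log2 fold change of each of the 36 genes in the combination against control (vertical axis) beside the GC content of its longest annotated transcript (horizontal axis, %), over the median and middle 50% of protein-coding genes in GC deciles. The median of all protein-coding genes goes from -0.72 in the decile of lowest GC content to 0.92 in that of highest, and EIF2AK3, CREB3L2, HSP90B1, SSR2 and CRELD2 are among the genes outside the middle 50% at their GC content.

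Genes with an ERSE or ERSE-II in the searched window were found on both sides. Of these 10 genes, 3 were higher in the combination (HSP90B1, CRELD2 and SDF2L1), 5 were lower (XBP1, CANX, PDIA6, HERPUD1 and HYOU1) and 2 were not called (HSPA5 and CALR), with a median change of -0.19. Of the 23 genes with an entry and neither element, 2 were higher, 13 lower and 8 not called, with a median of -0.51. Over all genes tested, 33.7% were called higher and 29.1% lower, with a median change of 0.10. Whether genes with and without an element differ was not tested. The elements printed above for HSPA5 and CRELD2, at 47 and 61 bases from the gene start, belong to genes that changed by -0.02 and 1.08.

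Crizotinib alone was compared with the same 3 controls. Of the 36 genes, 14 were lower, 3 higher (CRELD2, SSR2 and SSR4) and 19 not called, with a median change of -0.20 beside 0.08 for all genes tested, of which 17.6% were called lower and 20% higher (37.6% in either direction). The largest decreases were those of EIF2AK3 (-0.70 ± 0.17), DNAJB9 (-0.64 ± 0.18), CREB3L2 (-0.63 ± 0.18), SSR3 (-0.60 ± 0.13, adjusted p = 0.0063), SSR1 (-0.56 ± 0.15, adjusted p = 0.013) and EDEM1 (-0.56 ± 0.15, adjusted p = 0.014). PDIA4 (-0.36 ± 0.09), HERPUD1 (-0.38 ± 0.10), SEL1L (-0.47 ± 0.14), EDEM3 (-0.46 ± 0.15), ERN1, XBP1, DERL1 (-0.33 ± 0.12) and DNAJB11 (-0.29 ± 0.11) were the other genes called lower, the last 2 at adjusted p = 0.047 and 0.049. With library totals in place of TMM factors, HERPUD1, SEL1L, DNAJB11, XBP1, EDEM3 and DERL1 were not called. With the GC and length offset 2 genes were higher and 12 lower, of which 1 and 8 were the same, beside 14% and 19.1% of all genes. CRELD2 (0.46, adjusted p = 0.083), SSR4, SSR1, SEL1L, DNAJB11, XBP1, EDEM3 and DERL1 were not called there, DERL2 was called higher, and EDEM2, HYOU1, SDF2L1 and CALR were called lower. CRELD2 was also not called by limma-voom (0.60, adjusted p = 0.054). SSR2 and SSR4 rose by 0.48 ± 0.15 and 0.48 ± 0.15 (adjusted p = 0.025 for each).

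The crizotinib calls rested in part on single libraries. Without crizotinib library 2, no gene was called higher by edgeR and 9 were called lower, beside 10.1% and 10.7% of all genes in that fit, with 16 of the 36 at an unadjusted p under 0.05. SEL1L, DNAJB11, XBP1, EDEM3 and DERL1 were the decreases no longer called. EIF2AK3 was then at -0.55 (adjusted p = 0.02), ERN1 at -0.37, SSR3 at -0.46, CRELD2 at 0.31 (adjusted p = 0.19), SSR2 at 0.27 and SSR4 at 0.35. Without control library 1 the counts were 0 higher and 4 lower (15 at an unadjusted p under 0.05), where 9.97% and 7.74% of all genes were called, and without control library 2 or control library 3 they were 0 and 10 (19 and 18 at an unadjusted p under 0.05). The shares of all genes were 14.8% and 13% without control library 2, and 7.68% and 13.2% without control library 3. Without crizotinib library 1 the counts were 6 and 13, beside 25.4% and 20% of all genes. Among the genes called in the combination, crizotinib library 2 was the highest of its group for 6 of the 6 called higher and the lowest for 15 of the 19 called lower. Combination library 2 was the highest of its group for 6 of the 6 and the lowest for 17 of the 19. The call that chose these genes used the same combination libraries, and no such count was made over all genes. Crizotinib library 2 and combination library 2 also scored highest of their group on the first component over all genes (57.8 and 91.4). They had the lowest mitochondrial share of their group (5.2% and 4.3%), and its part in the differences was not tested.

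IN10018 alone gave no call among the 36 genes. edgeR called 0 higher and 0 lower, with 3 genes at an unadjusted p under 0.05 (XBP1, SDF2L1 and ERN1), and DESeq2 and limma-voom also called none. Over all genes tested 0.503% were called. The median change was -0.11 beside -0.02 for all genes, and changes ran from -0.68 for SDF2L1 to 0.11 for DNAJC3. For 13 of the 36 genes all 3 IN10018 libraries lay below all 3 controls, and this was so for 18.9% of all genes tested. They lay above all 3 controls for 0 of the 36, beside 14% of all genes tested. When only the 6 libraries of this comparison were fitted, XBP1, SDF2L1, DNAJB9, PDIA4 and ERN1 were called lower, beside 5.58% of all genes in that fit.

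Crizotinib added to IN10018 was read from the combination against IN10018 alone. Here 9 genes were higher and 15 lower, beside 29.7% and 27.5% of all genes tested (57.2% in either direction), with a median of -0.21 against 0.04. Libraries of the 2 groups did not overlap for 9 genes higher and 18 lower, beside 34.8% and 32.8% of all genes. SDF2L1 changed most (1.87 ± 0.30, adjusted p = 0.00046), from 10.1 ± 1.37 to 36.9 ± 14.9 CPM, and with the GC and length offset the change of SDF2L1 was 0.68 (adjusted p = 0.0053). PDIA3 (0.34 ± 0.12, adjusted p = 0.023), P4HB (0.41 ± 0.12, adjusted p = 0.01) and MANF (0.33 ± 0.13, adjusted p = 0.037) were called higher here. P4HB and HSP90B1 lost the call without combination library 2, DERL3 without IN10018 library 2 or combination library 2, and PDIA3 without any 1 of the IN10018 libraries or combination libraries 1 or 2. MANF lost it without control library 1 or 3, crizotinib library 3 or any 1 of the IN10018 and combination libraries. XBP1 was not called (-0.11 ± 0.11, adjusted p = 0.4), and its IN10018 and combination libraries overlapped. DNAJC3 was called lower (-0.43 ± 0.16, adjusted p = 0.031), a call lost without any 1 of the IN10018 libraries or combination libraries 2 or 3. With the GC and length offset 9 genes were higher and 12 lower, of which 6 and 9 were the same, beside 23% and 24.1% of all genes. SEL1L, DERL3, DNAJC3, EDEM3, ATF6, DNAJB9, DERL1, MANF and P4HB were not called with it. DERL2, DNAJB11 and SEC61G were then called higher and HYOU1, SYVN1 and CALR lower. MANF was also not called by DESeq2.

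IN10018 added to crizotinib was read from the combination against crizotinib alone, and no gene of the 36 was called by edgeR, DESeq2 or limma-voom. Of the 36, 10 had an unadjusted p under 0.05, and 0.0117% of all genes were called. The largest differences were those of SDF2L1 (0.90 ± 0.29, adjusted p = 0.21), EIF2AK3 (-0.66 ± 0.18, adjusted p = 0.21) and CREB3L2 (-0.53 ± 0.18, adjusted p = 0.21). Combination libraries lay below crizotinib libraries without overlap for EIF2AK3, HYOU1 and PDIA4, and this was so for 4.77% of all genes tested, and above them for none of the 36, beside 5.45% of all genes. The count depended on crizotinib library 2. Without it 5 genes were called higher (CRELD2, HSP90B1, SDF2L1, SSR2 and SSR4) and 10 lower, beside 15% and 17.3% of all genes in that fit, with EIF2AK3 at -0.82 (adjusted p = 0.0044) and SDF2L1 at 1.31 (adjusted p = 0.0045). Libraries of equal number in these 2 groups deviated together (correlations of 0.22, 0.62 and 0.27). Crizotinib library 1, however, correlated more with combination library 3 (0.42). A fit of the 6 libraries with the number as a block was added after seeing the data. It called 3 higher (SDF2L1, SSR4 and CRELD2) and 8 lower, beside 12.1% and 11% of all genes, with EIF2AK3 at -0.66 (adjusted p = 0.0012). The block over all 12 libraries called none of the 36, beside 0.526% of all genes higher and 0.0234% lower.

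Departure from additivity on the log2 scale was tested with an interaction term. edgeR called 0 of the 36 genes, with 1 at an unadjusted p under 0.05, beside 0.0702% of all genes called (0.0585% higher), limma-voom called none and DESeq2 called SDF2L1. The SDF2L1 interaction was 1.58 ± 0.42 (adjusted p = 0.3), with mean levels of 16.2 ± 0.764 CPM in controls, 10.1 ± 1.37 with IN10018, 19.7 ± 9.09 with crizotinib alone and 36.9 ± 14.9 in the combination. Without crizotinib library 2 it was 1.99 (adjusted p = 0.018), and CRELD2 was called as well (0.84). Calls over all genes rose too in that fit, to 2.25% higher and 2.37% lower.

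Other genes of the secretory pathway were read from 6 lists outside the 36 genes. Their counts in the combination stand beside 29.1% of all genes tested called lower and 33.7% higher, and several shares below are near these. The alternative fits, the GC and length offset among them, were read only for the 36 genes. Calls in these lists were therefore not checked with them. In ER to Golgi transport, 22 of 27 genes were lower in the combination than in control, 2 higher and 3 not called (median -0.57), among them the cargo receptor LMAN1 (-1.31 ± 0.19), TMED10 (-1.01 ± 0.14) and the COPII coat gene SEC23A (-1.77 ± 0.25). With crizotinib alone 18 of these 27 genes were lower and 1 higher, beside 17.6% and 20% of all genes tested. Of 24 genes of the translocon, signal peptidase and oligosaccharyltransferase, 12 were lower, 2 higher and 10 not called (median -0.31), with STT3B (-0.74 ± 0.12), SPCS3 (-1.28 ± 0.21) and TRAM1 (-1.35 ± 0.23) having the smallest p-values. Of 26 genes of oxidative folding and other ER chaperones, 12 were lower, 8 higher and 6 not called (median -0.21), with FKBP14 at -1.03 ± 0.13, DNAJC10 at -0.84 ± 0.14 and RCN1 at 0.89 ± 0.15. Further ERAD genes were divided, with 11 of 25 lower, 9 higher and 5 not called (median -0.16), as were further sensors and regulators, with 6 of 16 tested lower, 6 higher and 4 not called (median 0.05). In these 2 lists ERLIN1 (-1.18 ± 0.15) and EIF2S1, the α subunit of eIF2 (-0.97 ± 0.13), were lower, and so was MBTPS2, the protease that completes the cleavage of ATF6 (-1.55 ± 0.22).

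Genes downstream of PERK and ATF4 were divided much as all genes tested were. Of 24 tested, 7 were lower in the combination, 8 higher and 9 not called (median -0.14), beside 29.1% lower and 33.7% higher over all genes. ATF3 and PPP1R15A, an eIF2α phosphatase subunit, were lower with IN10018 alone (-3.02 ± 0.21, adjusted p = 1.2e-05, and -1.49 ± 0.17, adjusted p = 0.0021), the only genes of the 6 lists called in that comparison. In the combination they stood at 0.661 ± 0.272 and 14.2 ± 1.78 CPM against 23.4 ± 2.78 and 196 ± 23.3 in controls. ATF4 itself and its target DDIT3 (CHOP), named for their role and after their values were seen, rose from 205 ± 8.19 to 317 ± 27.4 CPM (0.63 ± 0.13, adjusted p = 0.00089) and from 4.78 ± 0.217 to 10.3 ± 1.97 CPM (1.10 ± 0.19, adjusted p = 0.00032), and DDIT4 rose by 1.40 ± 0.12. Other genes of this list, also named after their values were seen, were called lower. SLC7A11 fell from 653 ± 23.7 to 282 ± 60.6 CPM, MTHFD2 from 221 ± 4.84 to 134 ± 23.8 and PSAT1 from 58.2 ± 0.777 to 37.6 ± 4.3. CEBPG fell from 130.5 ± 5.84 to 97.4 ± 10.9 CPM, and ASNS and CHAC1 were not called.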

How the data were processed

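Gene-level read counts of 12 libraries were analysed as deposited. Per the submitters' processing notes, Trimmomatic, FastQC, HISAT2, featureCounts and DESeq2 were used with hg38 (GRCh38), and per the labels' protocols the libraries were made with a directional kit. Annotation release and strand setting are not given in the sources used here. Libraries held 13691844 to 20489708 counts, and their number limits the precision. Counts were fitted with edgeR 4.0.16 in R 4.3.3 (TMM, filterByExpr, robust quasi-likelihood F test, 4 group means over 12 libraries, Benjamini-Hochberg over 17096 genes, threshold 0.05). The SE was computed as the absolute log2 fold change divided by the square root of F. The script was tested on simulated data. DESeq2 1.42.0, limma-voom 3.58.1, other scalings and filters, a replicate block, the first within-group component as covariate and each library left out were alternatives, and the GC and length offset and a block within 6 libraries were added after seeing the data. The genes and lists were chosen with earlier results of these data known. Values in every library are given for the sensors, XBP1, CREB3L2, HSPA5, HSP90B1, HERPUD1 and DNAJB9 and for up to 6 other called genes per comparison and direction by size of change (mean log2 CPM of at least 1), and up to 3 called genes with the smallest p could be named per pathway list and comparison. Positions, exon lengths and GC content came from GENCODE 29, and promoter sequences from RefSeq GRCh38.p14. Whether replicate numbers pair libraries was checked from residuals: same-number correlations between crizotinib and combination were 0.22, 0.62 and 0.27, though crizotinib library 1 reached 0.42 with combination library 3, and between other groups they ran from -0.03 to 0.16.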

Additional observations from a re-analysis of the deposited data

Results flagged for a closer look

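ATF3, a stress-induced transcription factor read here among the genes downstream of PERK and ATF4, was flagged because the change with crizotinib differed between cells without and with IN10018. The interaction was 3.01 on the log2 scale (SE 0.43, adjusted p = 0.016 by edgeR's quasi-likelihood test). Crizotinib changed ATF3 by -5.13 ± 0.25 in the absence of IN10018, from 20.9, 26.4 and 23 CPM in controls to 0.83, 0.4 and 0.764, and by -2.13 ± 0.29 in its presence, from 3.4, 2.58 and 2.69 to 0.714, 0.903 and 0.367 CPM. Both changes ended at the same low level, 0.664 ± 0.232 CPM with crizotinib alone and 0.661 ± 0.272 CPM in the combination. The starting levels differed, at 23.4 ± 2.78 CPM in controls and 2.89 ± 0.446 with IN10018. Whether counts this low leave room for a further fall was not tested, so the interaction may not be a difference in drug effect. None of the 36 genes was flagged, and groups of 3 libraries are too small for the test of single outlying libraries.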

How the results depend on the processing

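The counts of genes called in the combination against control stayed within 1.5 times of 6 higher and 19 lower in all alternatives run. With library totals in place of TMM the median change of all genes moved from 0.10 to 0.27 and these counts were 8 and 14, beside 41.6% and 22% of all genes. For IN10018 against control, 0 genes were lower, against 1 without the low-count filter, 4 with the within-group axis, 3 without both libraries numbered 2, 5 with only the libraries compared and 2 with the GC and length offset. The shares of all genes called lower in these fits were, in that order, 0.21%, 3.55%, 1.36%, 5.58% and 0.526%, against 0.158% in the main fit. For crizotinib against control, library totals gave 8 lower, only the libraries compared gave 1 higher, and leaving out 1 library gave 0 to 6 higher and 4 to 16 lower. Over all genes, library totals gave 11.4% lower and only the libraries compared 14.6% higher. Leaving out 1 library gave 7.68% to 25.4% of all genes higher and 7.74% to 20% lower. For the combination against IN10018, leaving out 1 library gave 4 to 9 higher, beside 20.6% to 31.1% of all genes. For the combination against crizotinib, the counts higher and lower were 1 and 3 without the low-count filter, 6 and 12 with the axis, 4 and 9 without both libraries numbered 2, and 0 to 5 and 0 to 10 with 1 library left out. The shares of all genes rose as well, to 2.16% and 2.72% without the filter and 16.6% and 19.2% with the axis. They were 10.9% and 14.4% without both libraries numbered 2, and 15% and 17.3% without crizotinib library 2. For the interaction the counts were 1 higher with DESeq2 or without the filter, 4 and 6 with the axis, 4 and 1 without both libraries numbered 2, and 0 to 2 higher with 1 library left out. Over all genes, 0.129% were higher with DESeq2, 0.49% without the filter and 2.25% without crizotinib library 2. With the axis 9.22% were higher and 10.2% lower, and without both libraries numbered 2 these were 5.41% and 5.71%. The cause of these differences was not tested.

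With the replicate number as a block over 12 libraries, the counts higher and lower were 0 and 0 for IN10018, 3 and 16 for crizotinib and 7 and 19 for the combination against control, 9 and 17 for the combination against IN10018, and 0 and 0 for the combination against crizotinib and for the interaction. In that fit, the shares of all genes called higher and lower were 1.1% and 0.252% with IN10018. They were 22.7% and 20.6% with crizotinib alone. Combination libraries gave 34.6% and 29.8% relative to controls, 31.2% and 28.7% relative to IN10018 alone, and 0.526% and 0.0234% relative to crizotinib alone. The interaction term gave 0.123% and 0.0117%. The block within the 6 crizotinib and combination libraries gave 3 and 8, beside 12.1% and 11% of all genes.

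The GC and length offset reversed DERL2 (0.29), DNAJB11 (0.09), SDF2L1 (-0.54) and CALR (-0.29) for crizotinib, DERL2 (0.51), DNAJB11 (0.28), CANX (0.05) and SDF2L1 (-0.13) for the combination against control, and SEL1L (0.04), DERL2 (0.46), DNAJB11 (0.45), DNAJC3 (0.11), EDEM3 (0.03), CALR (-0.28) and P4HB (-0.02) for the combination against IN10018. No other alternative turned the direction of a called gene. Among genes not called in the combination against control, HSPA5 (0.16), CALR (0.15), SEC61B (0.13), DERL2 (0.12) and SYVN1 (0.11) changed sign with library totals. Depth limited DERL3 most, at 49 to 118 reads a library.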

Other observations

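Of the 36 genes, 27 overlap another annotated gene or have a named copy elsewhere, and for 8 of them the other gene held at least 10% of the reads of the gene described. The ligase gene SYVN1 overlaps FAU on the same strand, with 232% of its reads and a change of 0.60 in the combination against control, and MRPL49 on the other, with 61.8% and -0.96. DERL2 overlaps MIS12, with 46.6% of its reads and a change of -0.67, while DERL2 itself was at -0.06 ± 0.11. CRELD2 overlaps ALG12, with 30.3% of its reads and a change of -0.09, beside 1.08 for CRELD2. The copies PDIA3P1 and SSR4P1 held 5.08% and 6.05% of the reads of PDIA3 and SSR4.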
